A study of Rattus norvegicus with 10 samples.

Results

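The hearts compared here came from rats that had gone back into heat for 2 days after a month of cooling and from rats at the end of their first 30 days of heat. The comparison rests on 4 of the 10 arrays of the study, 2 for the reacclimated group (ReAC) and 2 for the 30-day group (AC30), chosen by their labels, and it covers all 14324 genes that the arrays measured under a single gene symbol. The question behind it is whether 2 days of renewed heat bring the ventricle back to the expression levels that 30 days of heat had given.

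Heat acclimation is the slow adjustment of an animal to a warm environment, in which body temperature, heart rate and metabolic rate settle at lower values and the heart becomes more tolerant of other stresses, such as loss of blood flow. The acclimated state fades after a return to moderate temperature, and it is known to come back faster on a second exposure than it was first acquired. In heart muscle, acclimation in rats has been linked to the slow myosin isoform, to calcium handling and to a larger reserve of heat shock proteins.

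The animals were albino Sabra rats, and left ventricle was taken under ketamine and xylazine anaesthesia in every group. The experiments began at an age of 3 weeks. AC30 rats had spent 30 days at 34 °C and were labelled as 2 months old. ReAC rats had spent 30 days at 34 °C, then 30 days at 24 °C and then 2 more days at 34 °C, and were labelled as 3 months old. Deacclimated rats (DeAC), also 3 months old, had the heat and the cooling without the return. Rats with 2 days of heat (AC2d) and untreated controls were both 1 month old, and the labels do not give the temperature at which controls lived. Each group had 2 arrays, each from RNA pooled from 5 animals, so the spread between pools stands for the spread between animals only in part. ReAC and AC30 differ in labelled age as well as in heat history, so that age, the cooling month and the renewed heat cannot be told apart in this comparison. Nor do they give the time of day at which hearts were taken.

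Values are log2 signals, on which a difference of 1 unit is a fold change of 2, and a gene is said to have risen or fallen where the adjusted p was under 0.05 in the limma fit of all 10 arrays. Changes are ReAC minus AC30 unless another pair is named, and ± gives the standard error from that fit. The array medians before normalization lay between 5.95 and 6.10 log2 units, and the 2 pools of ReAC were closer to each other than those of AC30, with median absolute differences between pools of 0.0761 and 0.105. Markers of the ventricle were bright in all arrays. Myl2, the ventricular regulatory myosin light chain, had a signal of 12.37 and 12.53 in AC30 and 12.52 and 12.42 in ReAC. Of 5 ventricular markers Irx5 and Myl3 rose (1 passed with the covariate described below), and the mean signal of the 5 was 9.30 and 9.31 in AC30 and 9.57 and 9.57 in ReAC, higher in both ReAC pools. Markers of the atrium were also bright in most arrays and moved between groups. Over the 11 measured atrial markers the mean signal was 10.75 and 10.60 in AC30, 9.72 and 9.73 in ReAC, 7.43 and 7.43 in DeAC and 10.09 and 8.70 in the control pools. AC30 was thus the highest group for atrial transcripts and DeAC the lowest, and the control pools stood far apart from each other, with 57 genes that differed by more than 1 log2 unit between them. Smooth muscle and pericyte markers went from 9.53 and 9.44 in AC30 to 9.26 and 9.24 in ReAC, and 3 of 9 fell (Cnn1, Myh11 and Tagln) while Des rose. Limma called 0 of the 9 lower and 0 higher without AC30 pool 1 or with the atrial covariate, 1 lower and 0 higher without ReAC pool 2, and 0 higher without ReAC pool 1, against 3 lower and 3 higher at an unadjusted p under 0.05 with all pools. White fat markers went from 7.11 and 7.07 to 6.47 and 6.51, and of 9 Plin1 fell and Lipe rose. Plin1 was lost without AC30 pool 1 or ReAC pool 2 and with the atrial covariate, Lipe without any 1 of the AC30 or ReAC pools and with the covariate, and 4 fell without either control pool. In bulk tissue, fewer cells of a type and less RNA per cell cannot be told apart. The part that atrial transcripts have in the results below was not tested, but counts from a second fit, in which each array's mean atrial marker signal was a covariate, are given beside many of the gene groups and genes described below (the atrial covariate). As that fit also holds a mean per group, the slope of the covariate rests on differences between pools of the same group. These were largest between the control pools, whose white fat markers differed as well (7.56 and 6.40). Values with the covariate thus lean mainly on the control pools and are not a clean adjustment for atrial tissue.

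**Figure D1:**
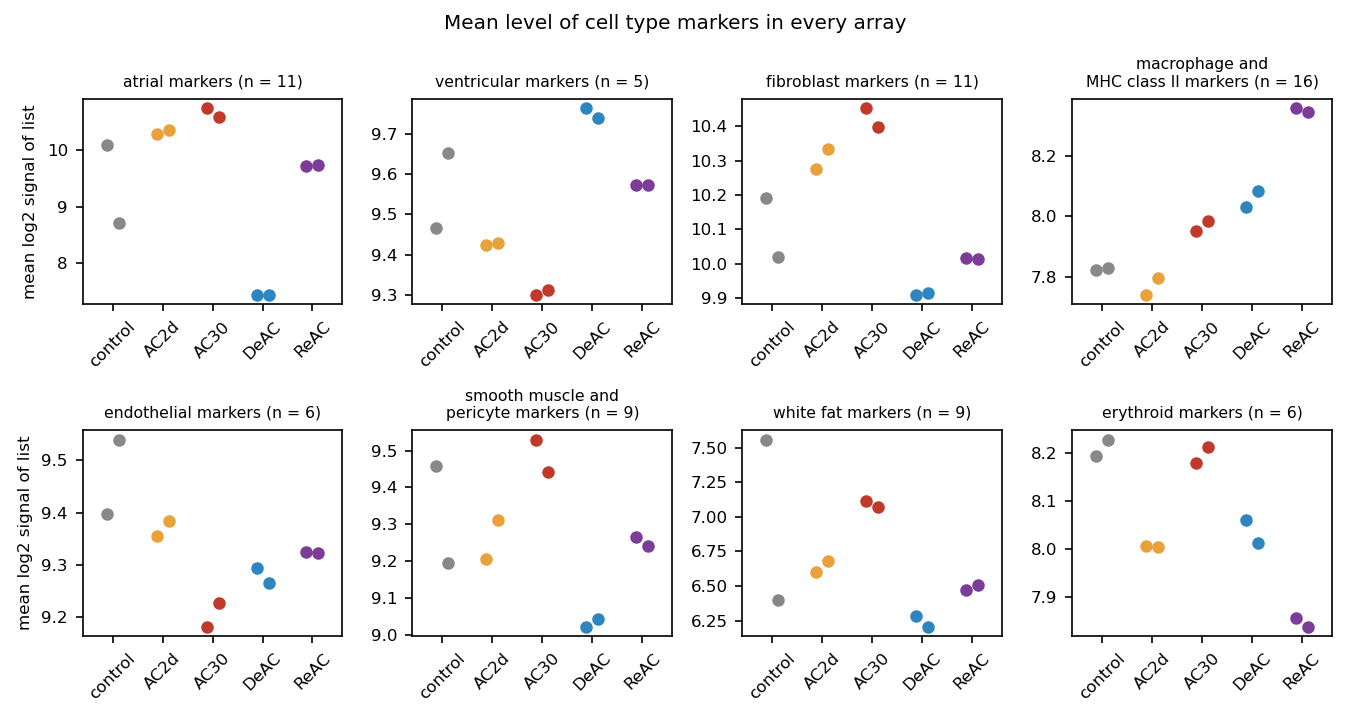
Mean log2 signal of 8 sets of cell type markers in each of the 10 arrays, by group on the horizontal axis, where each point is 1 pool of 5 animals and n is the number of measured markers. Both ReAC pools lie below both AC30 pools for atrial, fibroblast, smooth muscle, white fat and erythroid markers and above them for ventricular, macrophage and endothelial markers.

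ReAC hearts did not match AC30 hearts across the measured genes. Of 14324 genes, 970 were higher in ReAC (6.77%) and 695 were lower (4.85%), which makes 1665 in all (11.6%), and 42 of them differed by at least 1 log2 unit. The counts of every gene list below are to be read beside these shares. The median absolute difference between group means was 0.113 for ReAC and AC30, 0.121 for DeAC and AC30 and 0.0902 for ReAC and DeAC, so that on this measure the ReAC mean lay nearer to the deacclimated than to the 30-day mean. It was 0.110 for ReAC and control and 0.108 for ReAC and AC2d. DeAC is also the group with the same labelled age as ReAC. The number of genes that passed was 779 without AC30 pool 1, 747 without ReAC pool 1, 769 without ReAC pool 2 and 790 with the atrial covariate. When arrays were scaled to a common median in place of quantile normalization, 1263 genes were higher and 283 lower, and the median change over all genes moved from -0.00219 to 0.0653 log2 units, so the share of higher calls (58.3% against 81.7%) depends on the scaling.

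**Figure D2:**
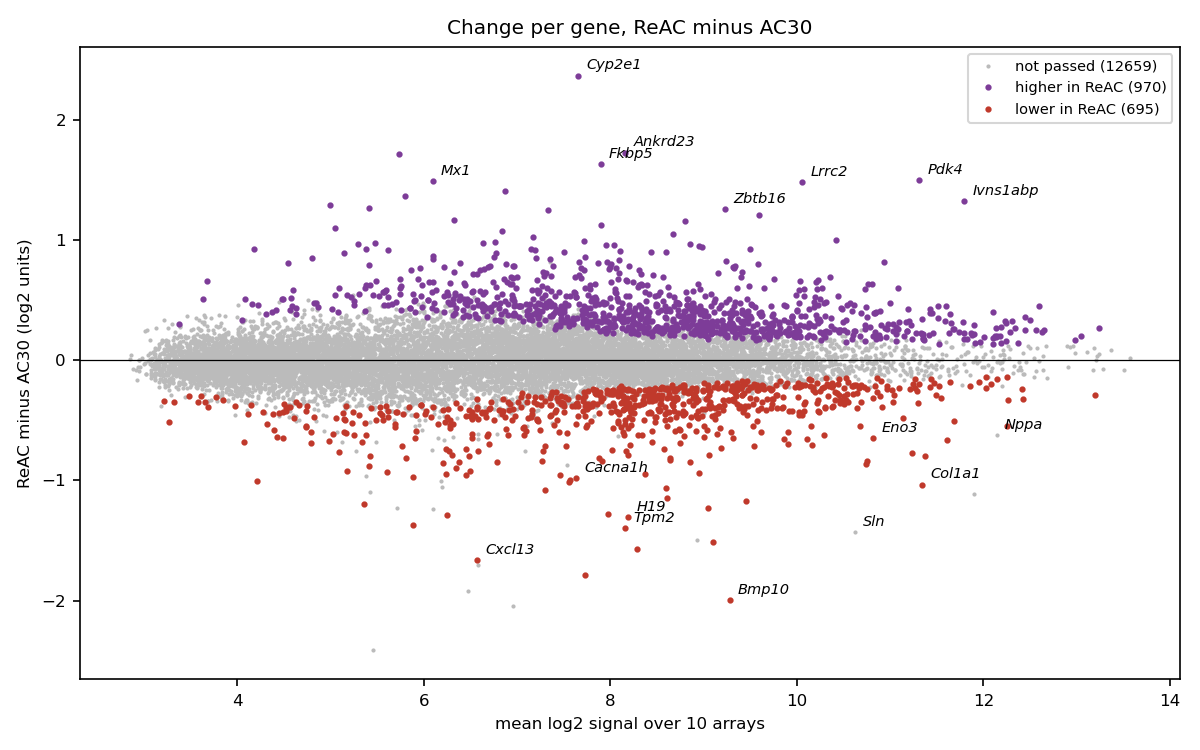
Change of each of 14324 genes from AC30 to ReAC in log2 units against its mean log2 signal over the 10 arrays, with the 970 genes higher in ReAC in purple, the 695 lower in red and the rest in grey. Genes named in the text are labelled, and Sln and Nppa are among those with a large change that did not pass.

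The genes with the largest rise included a group that responds to glucocorticoids, the adrenal steroid hormones released in stress. They act through a receptor that binds DNA and switches on genes for stress adaptation and for the use of fat and protein as fuel. Of 17 measured glucocorticoid-responsive genes, 11 rose and 6 did not pass, with a median change of 0.57 log2 units, where 6.77% of all genes rose and the median over all genes was -0.00219. The number that rose was between 10 and 12 when any pool was left out.

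Fkbp5, a co-chaperone of the glucocorticoid receptor and a widely used marker of its activity, read 7.03 and 7.47 in AC30 and 8.88 and 8.88 in ReAC. Its DeAC pools were at 8.28 and 8.34 and its control pools at 7.46 and 7.73. Both ReAC pools were above all other pools, and the rise over AC30 was 1.63 ± 0.12 log2 units (SE), or 3.09-fold (adjusted p = 4.54e-06). Zbtb16, a zinc finger transcription factor strongly induced by glucocorticoids, had pools at 8.70 and 8.69 in AC30 and 9.95 and 9.97 in ReAC. The AC30 pools were below the control pools, at 9.02 and 9.07, while the ReAC pools were close to the DeAC pools, at 9.88 and 9.82. The change from AC30 was 1.26 ± 0.05 (adjusted p = 2.03e-08), and that from DeAC was 0.11 ± 0.05 (adjusted p = 0.349). Ddit4, an inhibitor of the growth kinase mTORC1, rose by 0.96 ± 0.08, and Cdkn1a, which codes for the cell cycle inhibitor p21, rose by 0.97 ± 0.09. Per1, a clock gene that glucocorticoids also induce, rose by 0.76 ± 0.10 (adjusted p = 0.000232). The receptor gene itself, Nr3c1, changed by 0.01 ± 0.05 (adjusted p = 0.96), and it is named outside the rule for named genes.

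The same 17 genes were also read in the steps on either side, each of which shares 1 group with ReAC minus AC30. In AC30 minus control, 9 had fallen (4.96% of all genes were lower there) and 1 had risen, with a median of -0.34. In ReAC minus DeAC, 3 rose (1.7% of all genes were higher there) with a median of 0.11. AC30 minus control and ReAC minus DeAC share no array with each other. In DeAC minus AC30, before the renewed heat, 12 of the 17 had already risen and 2 had fallen, with a median of 0.44. There 1411 of all 14324 genes were higher. Of the clock genes, 4 of 14 rose from AC30 to ReAC, namely Per1, Per2, Cry2 and Tef, and Npas2 fell. With the atrial covariate 9 rose and 2 fell. The change was -0.50 for Npas2 without ReAC pool 1 and 0.37 for Cry2 without ReAC pool 2, each from a fit with 1 ReAC pool. Tef, an output gene of the clock, rose by 0.61 ± 0.10 (adjusted p = 0.00102).

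Cyp2e1, a cytochrome P450 that oxidises ethanol, acetone and other small molecules, had the largest rise of all genes that passed. Its signal was 6.77 and 7.09 in AC30 and 9.27 and 9.32 in ReAC, with DeAC between them at 8.41 and 8.40 and controls at 6.73 and 6.43. The pools of AC30, DeAC and ReAC did not overlap, which for AC30 and ReAC the rule that named the gene requires. ReAC was 5.15-fold higher than AC30 (2.36 ± 0.13 log2 units, adjusted p = 1.88e-07) and also above DeAC by 0.89 ± 0.13 (adjusted p = 0.0022). It belongs to a list of detoxifying enzymes, of which 8 of 17 rose and 9 did not pass. Fmo2, a flavin monooxygenase, rose by 0.95 ± 0.08. Cyp4b1, another cytochrome P450, rose by 0.83 ± 0.08, and Aldh2, the mitochondrial aldehyde dehydrogenase, rose by 0.63 ± 0.06 (adjusted p = 2.21e-05).

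Among antioxidant genes, 7 of 27 rose, but 3 without AC30 pool 1, 4 without ReAC pool 1 and 3 without ReAC pool 2. Hmox1, the enzyme that breaks down heme, had 6.39 and 6.30 in AC30 and 7.31 and 7.35 in ReAC, which is a rise of 0.98 ± 0.09 (adjusted p = 2.46e-05). Nqo1, a quinone reductase, rose by 0.69 ± 0.10 (adjusted p = 0.000509). The pools of ReAC and AC30 did not overlap for either gene.

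**Figure D3:**
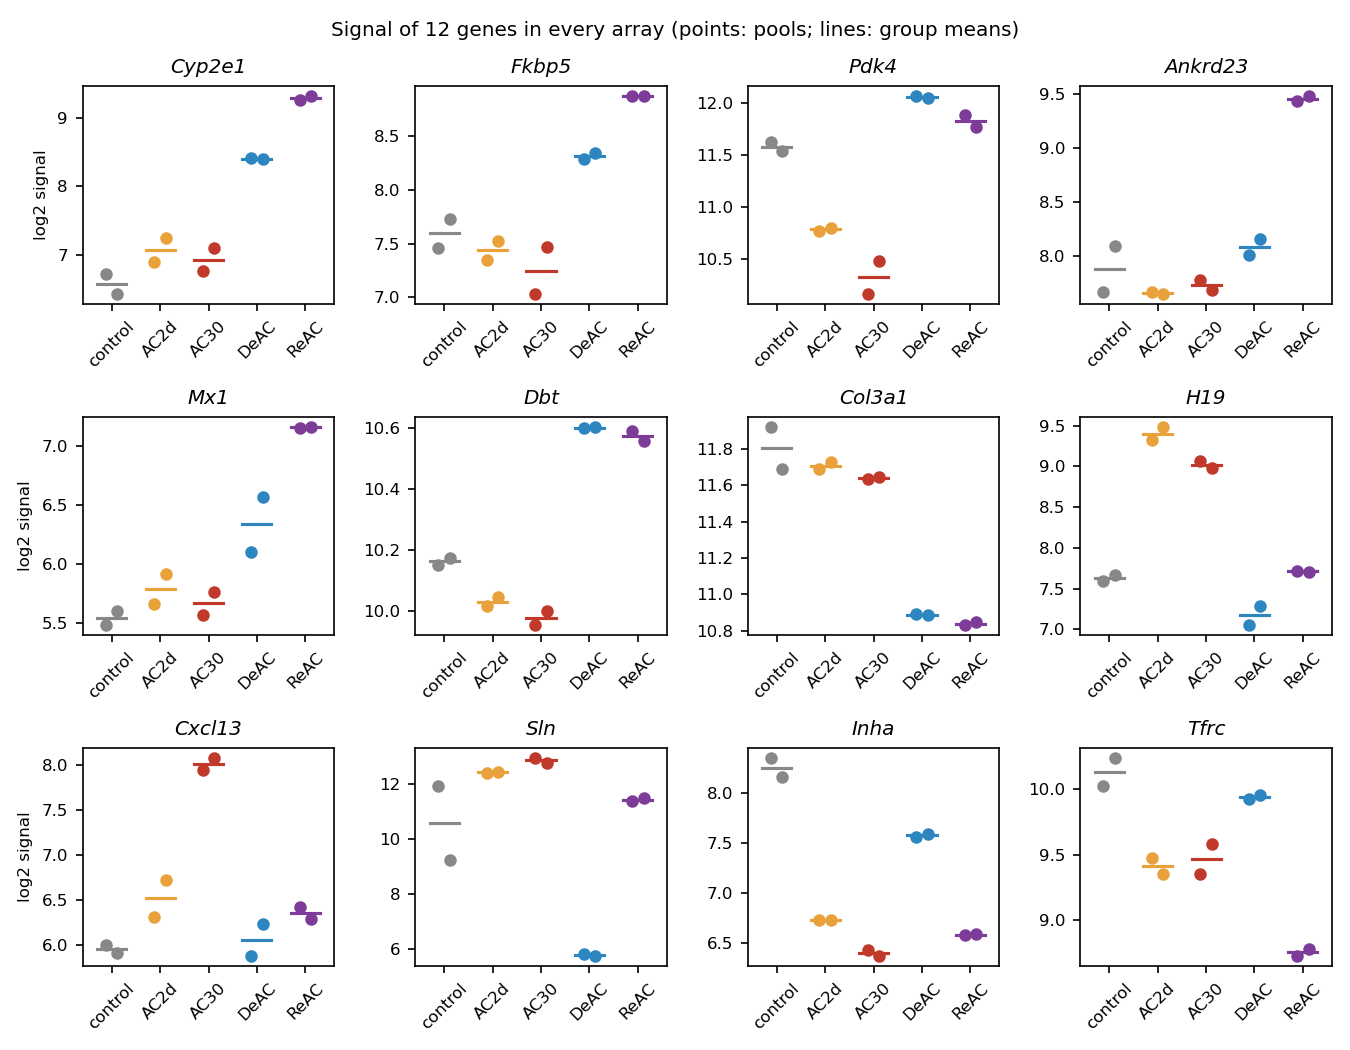
Log2 signal of 12 genes in each array, with groups on the horizontal axis, points for the 2 pools and a line for the group mean; the vertical axes differ between panels and do not start at 0. ReAC lies near DeAC for Pdk4, Dbt and Col3a1, above the other groups for Cyp2e1, Fkbp5, Ankrd23 and Mx1, near AC30 for Inha, and below the other groups for Tfrc.

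Genes for burning fat and branched-chain amino acids were higher in ReAC than in AC30. The heart draws most of its energy from fatty acid oxidation in mitochondria, and it can also use ketone bodies and the branched-chain amino acids. Of 32 fatty acid oxidation genes, 26 rose and 1 fell, and the median change was 0.31. Of 14 genes for ketone and branched-chain amino acid breakdown, 12 rose, with a median of 0.42, and this count was 12 with any pool left out. The first count was less stable, at 16 without AC30 pool 1, 14 without ReAC pool 2 and 15 with the atrial covariate.

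Pdk4, the kinase that shuts off pyruvate dehydrogenase and so spares glucose in favour of fat, was at 10.17 and 10.48 in AC30, the lowest of all groups, and at 11.88 and 11.77 in ReAC. DeAC stood at 12.06 and 12.05 and control at 11.62 and 11.54. The AC30 and ReAC pools were far apart, with a 2.83-fold difference (1.499 log2 units, adjusted p = 1.11e-07), and the step from DeAC to ReAC was -0.23 ± 0.08 (adjusted p = 0.133). Cd36, the main fatty acid transporter of the cell membrane, rose by 0.54 ± 0.06 (adjusted p = 0.000101). Cpt1b, the muscle enzyme that passes long-chain fatty acids into mitochondria, rose by 0.35 ± 0.04, and Acaa2, which performs the last step of mitochondrial beta-oxidation, rose by 0.40 ± 0.04 (adjusted p = 3.31e-05). The member that fell was Ucp2, an uncoupling protein of the inner membrane, at -0.35 ± 0.05 (adjusted p = 0.000287), and it is named, like all genes given here only because they make up a count of 5 or fewer, after its value was seen.

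Dbt, a subunit of the complex that commits branched-chain amino acids to oxidation, had signals of 9.95 and 9.998 in AC30, 10.59 and 10.56 in ReAC and 10.60 and 10.60 in DeAC. DeAC lay just above ReAC and AC30 was well below both, with a ReAC minus AC30 change of 0.60 ± 0.04 (adjusted p = 4.02e-06). Bckdhb, another subunit of that complex, rose by 0.48 ± 0.05. Hibadh, which acts further down the valine pathway, rose by 0.45 ± 0.04, and Acat1, which acts in both ketone and isoleucine breakdown, rose by 0.39 ± 0.04 (adjusted p = 4.49e-05).

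The same fuel genes were read in AC30 minus control, which shares the AC30 arrays with ReAC minus AC30 and also differs in labelled age. In AC30 minus control, 23 of the 32 fatty acid oxidation genes and 6 of the 14 ketone and branched-chain genes fell. There 4.96% of all genes were lower. In DeAC minus AC30, before the renewed heat, 29 of the 32 and 13 of the 14 had already risen, where 1411 of all 14324 genes were higher. That step shares the AC30 arrays as well. In ReAC minus DeAC, 9 of the 32 and 2 of the 14 fell, where 2.21% of all genes were lower, and the medians were -0.15 and -0.03. The median for fatty acid oxidation genes was thus below 0 in both exposures, at -0.27 in AC30 minus control. The 2 medians come from comparisons without a shared array, and the difference between them was not tested.

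Mitochondrial genes further along the pathway changed less evenly. Of 15 genes of the TCA cycle and pyruvate dehydrogenase, 11 rose, but 7 without ReAC pool 1, 4 without ReAC pool 2 and 5 with the atrial covariate. Ogdh, a subunit of the 2-oxoglutarate dehydrogenase complex, rose by 0.25 ± 0.04 (adjusted p = 0.000722), and Dld, a subunit shared by several such complexes, rose by 0.29 ± 0.05. Of 75 oxidative phosphorylation genes, 15 rose and 5 fell, which became 7 and 2 without ReAC pool 1, 9 and 1 without ReAC pool 2, 4 and 1 with the atrial covariate, 23 and 1 with median scaling and 5 and 0 without the eBayes trend. Those that fell were Atp5if1, Cox7a2l, Cox8a, Ndufa1 and Ndufc2, small subunits or regulators of the respiratory chain and ATP synthase, with changes from -0.37 to -0.19. Uqcrc2, a core subunit of respiratory complex III, rose by 0.27 ± 0.04 (adjusted p = 0.00123). Of 67 mitochondrial ribosome genes, 17 rose, with 3 without AC30 pool 1, 8 without ReAC pool 1, 3 without ReAC pool 2, 7 without the eBayes trend and 5 with the atrial covariate.

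In glucose use, 7 of 27 genes rose and 3 fell, and the count that rose was 3 without AC30 pool 1, 3 without ReAC pool 1 and 4 without ReAC pool 2, while the count that fell was 5 without AC30 pool 2. Eno3, the muscle form of the glycolytic enzyme enolase, fell from 11.28 and 11.30 to 10.67 and 10.61. The pools did not overlap, and the change was -0.65 ± 0.05 (adjusted p = 2.79e-06). Pfkp, an isoform of phosphofructokinase, fell by 0.60 ± 0.08 and Pgk1, phosphoglycerate kinase, by 0.16 ± 0.04, which was lost without AC30 pool 1 or either ReAC pool. By contrast, Pdk1 and Pdk2, which inhibit pyruvate dehydrogenase as Pdk4 does, rose by 0.47 ± 0.04 and 0.43 ± 0.04 (adjusted p = 1.17e-05 and 5.09e-05).

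Collagen and other matrix genes were lower in ReAC hearts. Fibroblasts make the collagen network that binds muscle cells together, and their output of collagen messenger RNA is high in the young growing heart. Of 30 measured matrix genes, 18 fell and 1 rose, and the median change was -0.34 log2 units, where 4.85% of all genes fell. Of 11 fibroblast markers 8 fell, and their mean signal went from 10.45 and 10.40 in AC30 to 10.02 and 10.01 in ReAC. The counts that fell were 16 to 20 and 7 to 8 with a pool left out.

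Col3a1, the collagen of fine fibres, read 11.64 and 11.65 in AC30, 10.83 and 10.85 in ReAC and 10.89 and 10.89 in DeAC. The AC30 pools stood well above the ReAC and DeAC pools, which lay side by side, and ReAC minus AC30 was -0.80 ± 0.06 (adjusted p = 3.78e-06). Col1a1, the main chain of type I collagen, fell by 1.03 ± 0.11 from 11.76 and 11.62 to 10.62 and 10.69 (adjusted p = 6.03e-05), or -0.68 with the atrial covariate. Fbn1, the microfibril protein fibrillin, fell by 0.60 ± 0.05, and Tcf21, a transcription factor that marks cardiac fibroblasts, fell by 0.68 ± 0.08 (adjusted p = 0.000151).

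Periostin, coded by Postn and made by activated fibroblasts, was the matrix gene that rose. It had 6.39 and 6.77 in AC30, 7.23 and 7.03 in ReAC, 5.81 and 5.95 in DeAC and 7.63 and 7.30 in control. DeAC was the lowest group, and ReAC was above AC30 by 0.55 ± 0.14 (adjusted p = 0.0212) and above DeAC by 1.25 ± 0.14 (adjusted p = 0.000274). The rise over AC30 did not pass without AC30 pool 1 (adjusted p = 0.226), without ReAC pool 1 (0.185) or without ReAC pool 2 (0.0539). In the matrix list as a whole, 4 genes rose and 2 fell from DeAC to ReAC, with a median of -0.06. In that step 1.7% of all genes were higher and 2.21% lower. From AC30 to DeAC, before the renewed heat, 20 of the 30 had already fallen and 1 had risen, with a median of -0.32. There 1067 of all 14324 genes were lower.

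H19, a long non-coding RNA that is abundant in fetal and young tissue, fell 2.47-fold from 9.07 and 8.98 to 7.72 and 7.71, a value close to the control pools at 7.59 and 7.66 (adjusted p = 1.19e-06). Igfbp3 and Igfbp5, which bind insulin-like growth factors, fell by 0.76 ± 0.07 and 0.84 ± 0.10, and Igfbp5 changed by -0.54 with the atrial covariate. Tgfb3, a transforming growth factor, fell by 0.63 ± 0.07 (adjusted p = 7.54e-05). Epyc, which codes for a small matrix proteoglycan, fell by 1.20 ± 0.13 (adjusted p = 5.94e-05).

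**Figure D4:**
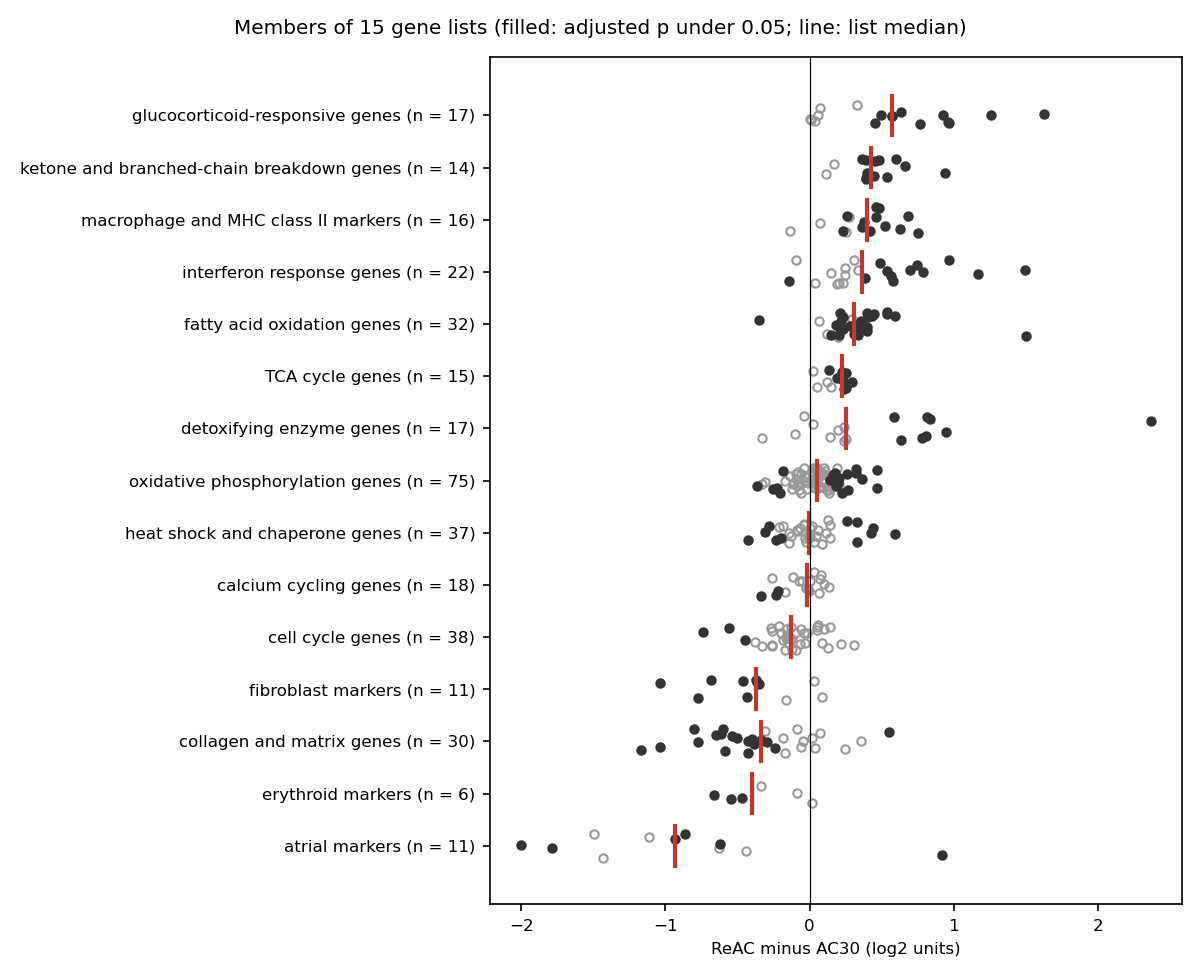
Change from AC30 to ReAC in log2 units for each measured member of 15 gene lists, with filled points for members that passed at an adjusted p under 0.05, open points for the others and a red line at the list's median. The medians of glucocorticoid-responsive, fuel, macrophage and interferon genes lie to the right of 0 and those of matrix, fibroblast and atrial genes to the left, while heat shock genes spread to both sides.

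Markers of macrophages were higher in ReAC. These resident immune cells clear debris and present antigen through MHC class II molecules. Of 16 macrophage and MHC class II markers, 12 rose, with a median of 0.40 and a mean signal of 7.95 and 7.98 in AC30 and 8.36 and 8.34 in ReAC. The count was 6 without ReAC pool 1, 7 without ReAC pool 2 and 5 with the atrial covariate. Mrc1, the mannose receptor of tissue macrophages, read 8.05 and 7.92 in AC30 and 8.72 and 8.76 in ReAC, with no overlap, and rose by 0.75 ± 0.07 (adjusted p = 2.6e-05). Cd163, the receptor that takes up haemoglobin, rose by 0.68 ± 0.10, and Lyz2, which codes for lysozyme, rose by 0.62 ± 0.08 (adjusted p = 0.000143). From DeAC to ReAC 5 of the 16 rose, where 1.7% of all genes were higher, with a median of 0.29. Cxcl13, a chemokine that attracts B cells, went the other way, with 7.94 and 8.07 in AC30 against 6.41 and 6.28 in ReAC. AC30 was the highest of the 5 groups for Cxcl13, and the change was -1.66 ± 0.14 (adjusted p = 1.1e-05).

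Genes of the interferon response rose as well. Interferons are released on viral infection and by sterile tissue stress, and they switch on antiviral genes through a short promoter element in which the letters GAAA are repeated. Of 22 measured interferon response genes, 11 rose and 1 fell, with a median of 0.36, and the count that rose was 8 to 13 with a pool left out and 7 with the atrial covariate. The member that fell, B2m, the light chain of MHC class I, changed by -0.14 ± 0.04 (adjusted p = 0.0365), a call that was lost with median scaling and without AC30 pool 1, either ReAC pool or either AC2d pool. From DeAC to ReAC 9 of the 22 rose, where 1.7% of all genes were higher, with a median of 0.35. In AC30 minus control 2 rose and 2 fell, where 3.57% of all genes were higher and 4.96% lower.

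To show what these promoters look like, the windows of 2 members with a large change are given, from 250 bases before to 50 bases after the transcription start in the RefSeq annotation of the rat build GRCr8. Capitals mark matches on either strand to the motif GAAA, any 2 bases and GAAA, and matches that overlap run together. The first is Oas1a, which codes for an enzyme that activates RNA degradation, at chr12:41330216-41330515, and the second is Ifi44l, an interferon-induced gene, at chr2:243328473-243328772, both on the plus strand.
Oas1a: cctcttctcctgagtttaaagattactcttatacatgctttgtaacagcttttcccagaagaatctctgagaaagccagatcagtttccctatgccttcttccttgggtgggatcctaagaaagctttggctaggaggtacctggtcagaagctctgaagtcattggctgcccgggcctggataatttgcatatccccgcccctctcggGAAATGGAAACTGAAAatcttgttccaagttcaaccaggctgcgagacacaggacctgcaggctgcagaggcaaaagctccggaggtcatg
Ifi44l: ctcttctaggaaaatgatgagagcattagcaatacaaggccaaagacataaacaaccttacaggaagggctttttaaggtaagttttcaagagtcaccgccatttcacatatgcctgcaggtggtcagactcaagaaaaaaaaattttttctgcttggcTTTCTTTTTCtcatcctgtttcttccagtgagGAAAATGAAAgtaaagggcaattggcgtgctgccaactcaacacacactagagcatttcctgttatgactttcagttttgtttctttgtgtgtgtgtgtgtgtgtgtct
The nearest match ended 25 bases before the start in Oas1a and 49 bases before it in Ifi44l. Of the 22 measured interferon genes, 18 had a window and 12 of these held the motif, against 3.77% of 27457 rat promoters. A match is a description of the letters and not a measured binding site.

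Mx1, an antiviral GTPase, stood at 5.57 and 5.76 in AC30, 7.15 and 7.16 in ReAC and 6.10 and 6.57 in DeAC. The ReAC pools were above every other pool, and the rise over AC30 was 2.81-fold (1.49 ± 0.15, adjusted p = 3.22e-05). Its paralogue Mx2 rose by 0.78 ± 0.07. Oas1a, whose window is printed above, had 5.53 and 6.04 in AC30 and 6.96 and 6.94 in ReAC and rose by 1.17 ± 0.14 (adjusted p = 0.000114). Ifi44l rose by 0.97 ± 0.13 over AC30 and by 0.93 ± 0.13 over DeAC (adjusted p = 0.000251 and 0.00117). Oas1a and its neighbour Oas1k, which rose by 1.37 ± 0.24, are similar in sequence, as are Mx1 and Mx2, so probes may not separate them fully.

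Heat shock genes did not move in 1 direction. Heat shock proteins are chaperones that hold or refold other proteins, and the factor HSF1 induces many of them through repeats of the letters GAA. Of 37 measured heat shock and chaperone genes, 6 rose and 5 fell, and the median change was -0.01. The count that fell was 1 without AC30 pool 1, 1 without ReAC pool 1, 2 without ReAC pool 2, 0 with median scaling and 2 with the atrial covariate. From DeAC to ReAC, limma called 0 of the 37 higher and 1 lower, against 2 and 6 at an unadjusted p under 0.05, after 2 days back at 34 °C. In that step 1.7% of all genes were called higher and 2.21% lower.

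The genes that fell were Hsph1, Hspd1, Hspe1, Fkbp4 and Hspb3.

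Hspa8, the constitutive HSP70 protein, was at 13.25 and 13.15 in AC30 and at 13.20 and 13.21 in ReAC, and the pools overlapped. Its change was 0.00 ± 0.04, with a 95% interval of -0.08 to 0.09, and its sign turned without AC30 pool 2 or ReAC pool 2. Hsp90aa1, the inducible form of HSP90, had 10.59 and 10.62 in AC30 and 10.61 and 10.60 in ReAC, again with overlap, and an interval of -0.11 to 0.10, and its sign turned in 5 of the alternatives. Hspb1, which codes for HSP27, changed by 0.08 ± 0.05 (adjusted p = 0.382). Among the genes that rose were Dnajb4, a co-chaperone of HSP70, from 9.81 and 9.83 to 10.41 and 10.42, and Bag3, a co-chaperone that directs damaged muscle proteins to autophagy, from 9.96 and 9.98 to 10.42 and 10.41. Their pools were apart, and the rises were 0.60 ± 0.05 and 0.44 ± 0.05 (adjusted p = 1.17e-05 and 4.49e-05). Hspb6, a small heat shock protein of muscle, rose by 0.33 ± 0.04. Hspb8, the partner of Bag3, changed by 0.14 ± 0.04 (adjusted p = 0.0578), and passed without AC30 pool 2 (0.0491) or either control pool (0.0426 and 0.0427), with values as deposited (0.0467), with the dimmest 40% of genes left out (0.0395) and with median scaling, where the change was 0.25 (0.0338). Hspa4l, an HSP70 relative, rose by 0.33 ± 0.09 (adjusted p = 0.0267), a call lost without any 1 of the AC30 or ReAC pools.

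Hsph1, an exchange factor for HSP70, fell by 0.31 ± 0.08 (adjusted p = 0.0165), a call lost without AC30 pool 1 (adjusted p = 0.105), without ReAC pool 1 (0.162) and with median scaling (0.354). The windows of Hspa8, which did not pass, at chr8:50080264-50080563, and of Hsph1, at chr12:10427118-10427417, both on the plus strand of GRCr8, are shown to compare 2 promoters that hold a heat shock motif. Capitals mark matches on either strand to the motif GAA, any 2 bases, TTC, any 2 bases and GAA.
Hspa8: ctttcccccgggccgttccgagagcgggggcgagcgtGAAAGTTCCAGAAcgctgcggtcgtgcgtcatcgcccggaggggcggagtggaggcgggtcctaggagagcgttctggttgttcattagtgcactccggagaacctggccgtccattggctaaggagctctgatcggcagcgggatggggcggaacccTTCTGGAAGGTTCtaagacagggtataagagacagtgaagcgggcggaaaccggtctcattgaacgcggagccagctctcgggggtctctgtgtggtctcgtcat
Hsph1: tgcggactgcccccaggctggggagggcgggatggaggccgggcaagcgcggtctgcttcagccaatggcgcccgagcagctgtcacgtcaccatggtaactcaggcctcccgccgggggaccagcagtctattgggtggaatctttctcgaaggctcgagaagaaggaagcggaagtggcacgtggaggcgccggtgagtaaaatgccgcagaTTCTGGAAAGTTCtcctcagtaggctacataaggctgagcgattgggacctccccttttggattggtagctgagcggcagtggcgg
Of 31 measured heat shock genes with a window, 7 held the motif, against 0.736% of 27457 promoters. Of these 7, 3 fell, namely Hsph1, Hspd1 and Hspe1, and the other 4 did not pass. Hspd1 and Hspe1 code for the mitochondrial chaperonin and fell by 0.20 ± 0.06 and 0.28 ± 0.07, calls that were lost without AC30 pool 1 or either ReAC pool and with median scaling, and that for Hspd1 also without either AC2d pool. For glucocorticoid-responsive genes, the palindrome GNACA, any 3 bases and TGTNC (N is any base) was in 1 of 16 windows, against 0.422% of all promoters, and no match says only that these letters were not in this window.

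Chaperones of the endoplasmic reticulum, where secreted proteins such as collagen are folded, were partly lower. Of 24 such genes, 5 fell, namely Pdia6, Pdia4, Pdia3, Calr and Hspa5, and 1 rose, with a median of -0.14, and the count that fell was 8 without either control pool, 1 with median scaling and 3 with the atrial covariate. Pdia6, a disulphide isomerase, fell by 0.46 ± 0.06 (adjusted p = 0.000278). Herpud1, part of the machinery that removes misfolded proteins from this compartment, rose by 0.67 ± 0.06 (adjusted p = 1.16e-05). Cytosolic ribosomal protein genes fell in 11 of 71 cases, but in 5 without AC30 pool 1, 4 without ReAC pool 1, 2 without ReAC pool 2, 0 with median scaling and 5 with the atrial covariate.

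In the contractile apparatus, 7 of 28 sarcomere genes rose, and Myh6, Tpm2 and Pdlim5 fell, and the count that rose was 4 without the eBayes trend. Pdlim5 was not called by limma without that trend (adjusted p = 0.0601). It changed by -0.16 both with median scaling and with the atrial covariate, and was called with neither (adjusted p = 0.260 and 0.256). Ankrd23, a muscle ankyrin repeat protein of the I-band that responds to stretch and metabolic stress, was at 7.78 and 7.69 in AC30 and at 9.43 and 9.48 in ReAC. DeAC, at 8.01 and 8.16, was also well below ReAC. The rise was 3.31-fold over AC30 (1.73 ± 0.11, adjusted p = 7.86e-07) and 1.37 ± 0.11 over DeAC (adjusted p = 2.76e-05).

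Xirp2, an actin-binding protein of the intercalated disc, and Lmod2, which elongates thin filaments, rose by 0.59 ± 0.06 and 0.47 ± 0.06. Myh6, the fast alpha-myosin heavy chain, fell from 13.27 and 13.25 to 12.96 and 12.98, and at 13.28 and 13.25 the DeAC pools were at the AC30 level. The change was small, at -0.29 ± 0.03, but larger than the spread between pools (adjusted p = 8.56e-05). Myh7, the slow beta-myosin heavy chain, had 12.86 and 12.80 in AC30 and 13.33 and 13.24 in ReAC, and the increase of 0.45 ± 0.11 (adjusted p = 0.0178) was not called without any 1 of these 4 pools (adjusted p of 0.0788, 0.0798, 0.134 and 0.0684). With the atrial covariate its change was 0.10 (adjusted p = 0.458). It was called over DeAC, which had 12.60 and 12.56, at 0.71 ± 0.11 (adjusted p = 0.0039). Tpm2, beta-tropomyosin, fell by 1.40 ± 0.24 (adjusted p = 0.00185), with a change of -0.61 in the fit with the atrial covariate, and its pools within control lay apart, at 8.95 and 7.79.

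Of 18 measured genes for calcium cycling, 3 fell, where 4.85% of all genes fell, namely S100a1, Asph and Slc8a1, with changes from -0.34 to -0.22, a count that was 0 without AC30 pool 1, 1 without ReAC pool 1, 0 without ReAC pool 2, 0 with median scaling and 1 with the atrial covariate. Atp2a2, the calcium pump SERCA2 of the sarcoplasmic reticulum, was at 13.33 and 13.31 in AC30 and 13.25 and 13.23 in ReAC. The difference did not pass (adjusted p = 0.175), with a 95% interval of -0.15 to 0.00, and its sign turned with median scaling. Pln, which codes for phospholamban, the inhibitor of that pump, changed by 0.03 ± 0.04, with an interval of -0.04 to 0.11, and its sign turned with the atrial covariate.

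Ion channel genes moved in both directions, where 6.77% of all genes rose and 4.85% fell. Of 15 potassium channel genes, Kcnip2, Kcnd2 and Kcnj11 rose and Kcna2 and Kcnk2 fell. Of 11 sodium, calcium and HCN channel genes, Hcn2 and Scn4b rose and Cacna1h and Cacna1d fell, and 1 rose without AC30 pool 1 or ReAC pool 1, while 1 rose and 1 fell with the atrial covariate. Kcnip2, the subunit that sets the transient outward current in ventricle, rose from 9.01 and 9.24 to 9.73 and 9.75, by 0.61 ± 0.07 (adjusted p = 0.000148). Hcn2, a channel of the pacemaker current, had 8.63 and 8.81 in AC30 and 9.53 and 9.55 in ReAC, without overlap, and rose by 0.82 ± 0.08 (adjusted p = 2.6e-05). Kcnj11, the pore of the ATP-sensitive potassium channel, rose by 0.43 ± 0.06. In the opposite direction, Cacna1h, a T-type calcium channel that is active in the young heart, fell from 8.23 and 8.08 to 7.18 and 7.18, by 0.98 ± 0.08 (adjusted p = 1.04e-05). Kcnk2, a stretch-sensitive potassium channel, fell by 0.79 ± 0.09 (adjusted p = 0.000118).

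Some of the largest falls were in genes typical of the atrium. Of 11 measured atrial markers, 5 fell and 1 rose. The atrial covariate is the mean of these 11, so with it their rises and falls must balance by construction. The count that fell was 3 without AC30 pool 1, ReAC pool 1 or ReAC pool 2, 10 without either control pool and 3 with the atrial covariate, with which 4 rose, and the control pools, which lay far apart for these markers, enter the estimate of spread. Bmp10, a growth factor of atrial muscle cells, had 11.74 and 11.54 in AC30, 9.57 and 9.71 in ReAC and 4.44 and 4.67 in DeAC. The groups were far apart from each other, with a change of -2.00 ± 0.43 from AC30 to ReAC (adjusted p = 0.00818), which missed the threshold without AC30 pool 1 (0.0774), ReAC pool 1 (0.0671) or ReAC pool 2 (0.0506). With the atrial covariate, which includes Bmp10 itself, the change was -0.52 (adjusted p = 0.00508).

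Sln, which codes for the atrial calcium pump regulator sarcolipin, showed 12.96 and 12.78 in AC30, 11.39 and 11.49 in ReAC, 5.79 and 5.73 in DeAC and 11.94 and 9.23 in control. Both ReAC pools lay below both AC30 pools and far above DeAC. The change of -1.43 ± 0.53 from AC30 did not pass (adjusted p = 0.104), but it passed without either control pool (adjusted p of 4.95e-10 and 4.98e-10), and with the atrial covariate, of which it is a part, it turned to 0.41 and passed as a rise (0.00288). Nppa, the atrial natriuretic peptide, behaved alike, at 13.32 and 13.25 in AC30 and 12.64 and 12.67 in ReAC, a change of -0.63 ± 0.28 (adjusted p = 0.181) that passed without control pool 1 (1.09e-07) or control pool 2 (1.01e-07) and turned to 0.34 with the covariate, which passed as a rise (0.00286). Tbx5 and Kcnj3, a transcription factor and a potassium channel that are strong in atrium, fell by 0.94 ± 0.14 and 0.87 ± 0.14 (adjusted p = 0.000828 and 0.00155), or -0.48 and -0.39 with the covariate. Kcna5, also on the atrial list, rose by 0.92 ± 0.12 (adjusted p = 0.000227).

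Of 15 natriuretic and other heart peptide genes, Ace rose and Npr3, Corin, Nppb and Aplnr fell, and 2 fell with median scaling. Corin, the protease that activates natriuretic peptides, fell by 0.70 ± 0.09 (adjusted p = 0.000253), and Npr3, their clearance receptor, fell by 1.23 ± 0.23, from 9.94 and 9.92 to 8.68 and 8.71 (adjusted p = 0.00293), or a change of -0.47 with the atrial covariate. Nppb, the B-type natriuretic peptide, fell by 0.39 ± 0.09 (adjusted p = 0.0134), which did not pass without AC30 pool 1 (0.0708), AC30 pool 2 (0.0575), ReAC pool 1 (0.113) or ReAC pool 2 (0.0569), nor with median scaling (0.106). Its change was -0.11 with the atrial covariate (adjusted p = 0.371). In ReAC minus DeAC it was higher by 0.58 ± 0.09 (adjusted p = 0.00356).

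Of 18 iron and heme genes, Hmox1 and Slc40a1 rose and Tfrc and Hjv fell, where 11.6% of all genes passed, with a median of -0.03. The count that fell was 1 without AC30 pool 1 or either ReAC pool, with median scaling and with the atrial covariate. Tfrc, the transferrin receptor through which cells take up iron, had 9.35 and 9.58 in AC30, 8.73 and 8.78 in ReAC, 9.93 and 9.96 in DeAC and 10.03 and 10.24 in control. The ReAC pools were the lowest of all, with a change of -0.71 ± 0.08 from AC30 (adjusted p = 9.17e-05) and of -1.19 ± 0.08 from DeAC (adjusted p = 1.99e-05). Slc40a1, the iron exporter ferroportin, rose by 0.51 ± 0.09 (adjusted p = 0.00172). Of 6 measured erythroid markers, 3 fell with every pool left out in turn, namely Hbb-b1, Hbb and Alas2, and the mean signal of the markers was 8.18 and 8.21 in AC30 and 7.86 and 7.84 in ReAC. Hbb-b1, a beta-globin, went from 12.06 and 12.06 to 11.38 and 11.41, a fall of 0.66 ± 0.05 (adjusted p = 4.02e-06), and Alas2, the heme synthesis enzyme of red cell precursors, fell by 0.47 ± 0.07. The pools did not overlap in either. Globin transcripts in ventricle come with blood, whose amount in each pool was not measured.

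Among genes of dividing cells, 3 of 38 fell from AC30 to ReAC, namely Top2a, Pbk and Ttk, where 4.85% of all genes fell, with a median of -0.13, and the count was 1 without AC2d pool 1 or 2, AC30 pool 2 or ReAC pool 1. Top2a, the topoisomerase of dividing cells, had 6.16 and 6.47 in AC30, 5.60 and 5.56 in ReAC, 6.44 and 6.58 in DeAC and 7.69 and 7.74 in control. ReAC was the lowest group, with a change of -0.74 ± 0.11 from AC30 (adjusted p = 0.000838) and of -0.94 ± 0.11 from DeAC (adjusted p = 0.000516). Muscle cells of the rat heart stop dividing soon after birth, and control rats here were younger than the other groups except AC2d. ReAC and DeAC had the same labelled age, and the part of age in these values was not tested.

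The title of the study asks about epigenetic control. Of 37 chromatin modifier genes, Kat2b and Ezh1 rose and Cbx5 and Kdm2a fell, a share of calls close to that of all genes, and each count was 1 without AC30 pool 1, ReAC pool 1 or ReAC pool 2, while 4 fell without AC30 pool 2. Cbx5, which codes for heterochromatin protein 1 alpha, fell by 0.54 ± 0.07 (adjusted p = 0.000408), and Kat2b, a histone acetyltransferase, rose by 0.37 ± 0.07 (adjusted p = 0.00264). Of 16 core histone genes 3 fell, namely H2bc12, H4c14 and H2ac4, with 0 without AC30 pool 1 and 1 without ReAC pool 1 or ReAC pool 2. H1f1, a linker histone, was at 6.80 and 6.70 in AC30, 6.29 and 6.37 in ReAC and 7.79 and 7.97 in control, a fall of 0.42 ± 0.10 from AC30 (adjusted p = 0.0161) that was lost without AC30 pool 1 (0.117), ReAC pool 1 (0.126) or ReAC pool 2 (0.064). H1f5, another linker histone, changed by -0.32 ± 0.12 (adjusted p = 0.0946), and it passed without AC30 pool 1 (adjusted p = 0.04).

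Parp1, which marks DNA breaks and modifies chromatin with poly-ADP-ribose, read 9.92 and 9.90 in AC30, 9.64 and 9.61 in ReAC and 9.91 and 9.86 in DeAC. AC30 and DeAC overlapped and ReAC was below both, with a change of -0.29 ± 0.05 from AC30 (adjusted p = 0.00148) and of -0.26 ± 0.05 from DeAC (adjusted p = 0.00866). With median scaling the fall from AC30 did not pass (adjusted p = 0.171). Of 25 DNA repair and PARP genes, 3 rose, namely Lig4, Parp3 and Parp9, and Parp1 was the gene that fell, where 6.77% of all genes rose and 4.85% fell. Lig4, the ligase that joins double-strand breaks, rose by 0.63 ± 0.08, and Parp3 rose by 0.61 ± 0.08 (adjusted p = 0.000139 and 0.000319).

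Signalling genes gave calls in both directions, where 6.77% of all genes rose and 4.85% fell. Counts near these shares are not read as a pattern of a list. Of 24 genes of the p38 MAP kinase pathway, 8 rose and Dusp10, a phosphatase of the pathway, fell, but 4 rose without AC30 pool 1, 2 without ReAC pool 2 and 4 with the atrial covariate. Mapk14, the p38 alpha kinase itself, had overlapping pools at 8.84 and 8.64 in AC30 and 8.74 and 8.80 in ReAC, a 95% interval of -0.13 to 0.20, and a sign that turned without AC30 pool 2. Mknk2, a kinase that acts on translation downstream of p38, rose by 0.45 ± 0.06 (adjusted p = 0.000289). In the Jak-Stat list of 23, the receptors Osmr and Il6r rose and the feedback inhibitors Socs1 and Socs2 fell, and limma called 0 or 1 of them higher and 1 lower without AC30 pool 1, ReAC pool 1 or ReAC pool 2. In the PI3K-Akt and insulin list of 28, Pik3r1, Foxo3 and Foxo1 rose and Igfbp5, Igfbp3, Igf2 and Igf1 fell, where 7 rose with median scaling. Foxo1 rose by 0.23, which limma did not call without the eBayes trend (adjusted p = 0.0891). With the atrial covariate its change was 0.19 and was not called (adjusted p = 0.281). It was 0.19 without ReAC pool 1 and 0.28 without ReAC pool 2. Pik3r1, the regulatory subunit of PI3 kinase, rose by 0.58 ± 0.05, and Foxo3, a transcription factor held back by Akt, rose by 0.45 ± 0.07 (adjusted p = 1.36e-05 and 0.000881). Stat3 and Akt1 did not pass, with changes of 0.02 ± 0.06 and -0.16 ± 0.06 and 95% intervals of -0.10 to 0.15 and -0.29 to -0.02, and the sign for Stat3 turned without AC30 pool 2 and with the atrial covariate.

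The Wnt pathway steers development and growth, and 6 of its 39 measured genes fell while Fzd4, a receptor, rose. The count that fell was 3 without AC30 pool 1, ReAC pool 1 or ReAC pool 2 and with the atrial covariate. Dkk3, a secreted Wnt modulator, fell by 0.66 ± 0.11 (adjusted p = 0.00121), or -0.35 with the covariate, and Fzd5, another receptor, fell by 0.51 ± 0.08 (adjusted p = 0.00109). Of 27 activin and TGF-beta genes, Tgfb3, Ltbp1, Smad6 and Fstl1 fell, with changes from -0.63 to -0.40. Limma did not call Smad6 with the atrial covariate (-0.23, adjusted p = 0.256) or Fstl1 with median scaling (-0.29, adjusted p = 0.0566). Of 19 immediate-early genes, which respond within minutes to stress and growth signals, Atf3, Klf2, Jun, Zfp36 and Myc rose, with changes from 0.38 to 0.89, and 3 rose without AC30 pool 1 or ReAC pool 2. Of 49 chemokine genes, Cxcl11 rose by 0.96 ± 0.14 and Cxcl13, Ccl26 and Ccl27 fell, where 11.6% of all genes passed. The count that rose was 4 without AC30 pool 2, 3 without either control pool, 2 without either DeAC pool and 3 with median scaling, and 1 fell without AC30 pool 1 or ReAC pool 2 and with the atrial covariate.

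Whether the second heat exposure moved genes as the first had can be asked with arrays that do not overlap, since AC30 minus control and ReAC minus DeAC share none, although both take their spread from the same fit. The exposures were unlike in length, at 30 days and 2 days. AC30 rats were labelled 2 months old and controls 1 month, so heat and age cannot be told apart in the first step. ReAC and DeAC had the same labelled age. The first 2 days of heat (AC2d) were not part of this overlap. AC30 minus control had 1222 calls (8.53% of genes) and ReAC minus DeAC 560 (3.91%). Of the 512 genes higher in AC30 than in control, 96 were also higher in ReAC than in DeAC and 1 was lower. The 96 genes are 18.8% of the first list and 39.3% of the 244 genes higher in ReAC than in DeAC. Of the 710 genes lower in AC30, 162 were also lower in ReAC than in DeAC and 14 were higher, and the 162 are 22.8% of the first list and 51.3% of the 316 genes of the second. The remaining 415 and 534 genes did not pass in ReAC minus DeAC. Over the whole lists the median ReAC minus DeAC change was 0.16 and -0.14 log2 units, and over all genes it was -0.0059. The counts that moved the same way in both were 6 and 46 with the atrial covariate. With 1 pool left out, the 96 became 20 to 196 and the 162 became 32 to 212, lowest without ReAC pool 2 (20 and 47) or ReAC pool 1 (21 and 32). The 560 calls of ReAC minus DeAC became 98 without ReAC pool 1, 132 without ReAC pool 2, 177 without DeAC pool 2 and 202 without DeAC pool 1.

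Across all 14324 genes the changes of these steps had a Pearson correlation of 0.426 and a Spearman correlation of 0.293, given as a description because genes are not independent and both steps include the movement of atrial transcripts. The genes with the largest rise in AC30 minus control among those also higher in ReAC minus DeAC were Hamp, Sln, Bmp10, Mybphl and Rxfp1. The first 4 are on the atrial list, and so part of the atrial covariate, and Rxfp1 codes for the relaxin receptor. Hamp, the iron hormone hepcidin, had 10.82 and 10.57 in AC30, 9.23 and 9.18 in ReAC and 6.41 and 6.36 in DeAC. It passed in ReAC minus DeAC at 2.82 ± 0.48 (adjusted p = 0.00633) and not in ReAC minus AC30 at -1.49 ± 0.48 (adjusted p = 0.0641), though it passed there without control pool 1 (1.98e-09) or control pool 2 (1.57e-09), and with the covariate it turned to 0.19. Mybphl, a myosin-binding protein of atrium, and Rxfp1 were both lower in ReAC than in AC30, with changes of -1.79 ± 0.46 and -1.57 ± 0.33 (adjusted p = 0.0214 and 0.00655). Without AC30 pool 1 neither passed (adjusted p of 0.132 and 0.0691), nor without ReAC pool 1 (0.117 and 0.0529) or ReAC pool 2 (0.106 and 0.0508), and Mybphl was also lost without AC30 pool 2 (0.0651). With the atrial covariate the change was -0.22 for Mybphl (adjusted p = 0.365) and -0.46 for Rxfp1 (adjusted p = 0.0092).

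**Figure D5:**
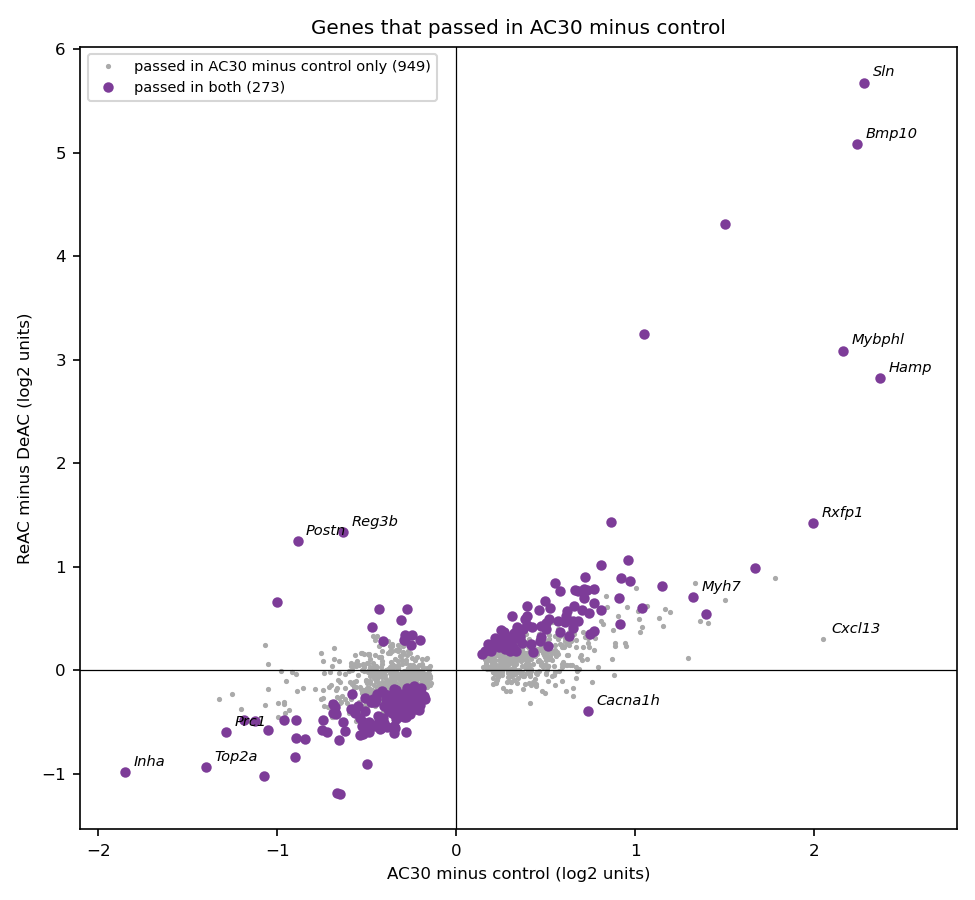
Change from DeAC to ReAC against change from control to AC30, both in log2 units, for the 1222 genes that passed in AC30 minus control, with purple points for the 273 that also passed in ReAC minus DeAC. Most purple points lie in the upper right and lower left, the 5 genes of the upper right with the largest first change include 4 atrial markers, and Postn and Reg3b lie in the upper left.

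Among genes lower after 30 days of heat and lowered again in 2 days, Inha had the largest first fall. It codes for the alpha subunit of inhibin, which opposes activin. Its signal was 8.35 and 8.16 in control, 6.44 and 6.37 in AC30, 7.56 and 7.59 in DeAC and 6.58 and 6.60 in ReAC, and it was already 6.73 and 6.73 after 2 days of first heat. The ReAC pools lay just above the AC30 pools and 1 log2 unit below DeAC, with a ReAC minus AC30 difference of 0.18 ± 0.09 (adjusted p = 0.216, 95% interval -0.01 to 0.37) and a ReAC minus DeAC change of -0.99 ± 0.09 (adjusted p = 6.93e-05). Ucp3, a mitochondrial carrier of muscle that follows fat use, had 7.27 and 7.40 in AC30, 7.51 and 7.75 in ReAC and 8.74 and 8.90 in DeAC. It changed by -1.19 ± 0.12 from DeAC (adjusted p = 0.000127) and 0.29 ± 0.12 above AC30, which did not pass (adjusted p = 0.132, interval 0.04 to 0.54) but did without control pool 1 (0.0494). Prc1 and Kif4a, both needed to divide a cell, were lower than in DeAC, with changes of -0.60 ± 0.13 and -0.49 ± 0.12, and differed from AC30 by -0.26 ± 0.13 and -0.17 ± 0.12, with intervals of -0.53 to 0.01 and -0.42 to 0.08. These intervals still allow differences from AC30 and do not show that the levels were equal.

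A few genes moved in opposite directions in the 2 exposures. Reg3b, a secreted lectin of the pancreatitis-associated family, had 5.83 and 5.54 in control, 4.88 and 5.24 in AC30, 5.33 and 5.55 in DeAC and 6.90 and 6.65 in ReAC. It was lowest after 30 days and highest after the return, with ReAC 1.72 ± 0.16 above AC30 and 1.34 ± 0.16 above DeAC (adjusted p = 1.53e-05 and 0.000365). Its relative Reg3g was 0.81 ± 0.12 above AC30 (adjusted p = 0.000722). Cacna1h was the gene that rose in AC30 minus control, by 0.74 ± 0.08 (adjusted p = 0.000201), and fell in ReAC minus DeAC, by 0.40 ± 0.08 (adjusted p = 0.0178).

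The comparison of ReAC with AC30 can in the same way be set beside DeAC minus control, with which it shares no array. DeAC minus control had 1178 calls (8.22% of genes), of which 54.2% were higher, or 81.9% with median scaling. Of the 970 genes higher in ReAC than in AC30, 343 were higher in DeAC than in control and 5 were lower, against 4.45% and 3.77% of all genes. The 343 genes are 35.4% of the first list and 53.8% of the 638 of the second. Of the 695 lower genes, 214 were lower in DeAC than in control and 4 were higher, which is 30.8% of the first list and 39.6% of the 540 of the second. With the atrial covariate the same-direction counts were 75 and 35, and without DeAC pool 2 they were 144 and 113, while 352 were lower in both without control pool 2. The Pearson correlation across genes was 0.555 and the Spearman correlation 0.483, again as a description. DeAC was also 2 months older than control by the labels, and ReAC 1 month older than AC30.

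Several genes with large changes belonged to none of the lists. Lrrc2, a leucine-rich repeat protein of heart mitochondria, read 9.32 and 9.48 in AC30 and 10.89 and 10.87 in ReAC and rose 2.79-fold (adjusted p = 2.03e-08). Ivns1abp, an actin-binding Kelch protein, was bright and rose from 11.28 and 11.17 to 12.56 and 12.54 (adjusted p = 9.89e-08), and it was also 0.59 ± 0.07 above DeAC. For both genes the pools of the groups were apart by over 1 log2 unit, but the rule that named them requires pools without overlap. Pbld1, Mc4r and Tceal7 rose by 1.41 ± 0.12, 1.29 ± 0.14 and 1.26 ± 0.16 (adjusted p = 1.25e-05, 5.19e-05 and 0.000183). Mc4r codes for a melanocortin receptor known from the brain, and its signal of 5.77 and 5.83 in ReAC was low on the scale of the arrays. Cited1, a transcriptional co-regulator, fell by 1.28 ± 0.16 (adjusted p = 0.000201), and Camk1d, a calcium-dependent kinase, fell by 1.28 ± 0.24 (adjusted p = 0.00291), which was not called with the atrial covariate (-0.55, adjusted p = 0.052). Stard10, a lipid transfer protein, and Atp1b4, a muscle protein of the inner nuclear membrane, fell by 1.52 ± 0.33 and 1.37 ± 0.34 (adjusted p = 0.00821 and 0.0179), calls that were lost without AC30 pool 1 (0.0817 and 0.123), ReAC pool 1 (0.0605 and 0.0891) or ReAC pool 2 (0.0578 and 0.11). Their changes were -0.40 and -0.27 with the atrial covariate (adjusted p = 0.0092 and 0.479).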

How the data were processed

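RNA from 10 pools of left ventricle was measured on 1 expression array per pool. The authors deposited log2 values per probe set, and neither the labels nor the file headers say how they were normalized. The authors also deposited a table of 651 probe sets with signed fold changes against control, read here as a score and used only for a check against the log2 values. Of 27342 probe sets, 15097 had 1 gene symbol in the platform annotation, 323 had several and 11922 had none, and 15067 matched a RefSeq gene. The brightest probe set stood for each of 499 genes with several, which left 14324 genes.

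Values were quantile normalized and fitted with limma 3.58.1 in R 4.3.3, with 1 mean per group over all 10 arrays and an eBayes trend (5 residual degrees of freedom). Adjusted p is Benjamini-Hochberg over all genes, and limma's test at 0.05 defines a call. Intervals are 95% and unadjusted. Pools are named by their label number, and with 2 pools per group the number of arrays limits the precision. The fit was also tried on simulated data with independent noise and a spread per gene that was the same in all groups. That simulation cannot show how the fit behaves where the spread differs between groups, as it did for the control pools.

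The comparison, the 53 gene lists and the rule for named genes were chosen with earlier results of these data known. The rule takes the 12 genes per direction with the largest called change and no overlap between pools. It adds the 4 called members of each list with the smallest p. It also takes, whatever their p, a fixed set of heart, heat shock, chromatin, glucocorticoid-responsive, fuel, signalling, matrix and cell cycle genes. Last come the 5 genes per direction with the largest first change among those called in both exposures. For the 12 genes per direction, pools without overlap follow from the rule and are no further support. Promoters came from RefSeq (GRCr8). Alternatives changed the normalization, trend, probe set rule, dim genes, groups fitted, pairing, threshold, pools and an atrial marker covariate, and were run for single genes and lists in ReAC minus AC30 only.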

Additional observations from a re-analysis of the deposited data

How the results depend on the processing

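The direction of the ReAC minus AC30 calls held for every called gene that the text names, and the number of calls depended on the setting. With values as deposited, ReAC minus DeAC had 365 calls and 91 genes were lower in both exposures. With median scaling there were 283 lower calls in ReAC minus AC30, 213 calls in ReAC minus DeAC and 602 in AC30 minus control, with 42 higher and 46 lower in both exposures and 60 lower in both ReAC minus AC30 and DeAC minus control.

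Without the eBayes trend, ReAC minus AC30 had 1013 calls (596 higher and 417 lower), ReAC minus DeAC 160, AC30 minus control 541 and DeAC minus control 558. The genes called in both exposures were then 24 higher and 34 lower, and those in both ReAC minus AC30 and DeAC minus control were 143 and 99. With the groups of each comparison fitted alone, ReAC minus DeAC had 1002 calls, AC30 minus control 278 and DeAC minus control 504, with 52 and 81 in both exposures and 179 and 121 in the other pair.

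With the atrial covariate, ReAC minus AC30 had 790 calls (498 and 292), ReAC minus DeAC 118, DeAC minus AC30 93, AC30 minus control 219 and DeAC minus control 250, with 6 and 46 in both exposures and 75 and 35 in the other pair. At an adjusted p under 0.01 these counts were 809 (495 and 314), 173, 1445, 507 and 473, with 24 and 43 and with 140 and 92. At a change of at least 0.5 they were 414 (255 and 159), 139, 613, 315 and 254, with 35 and 19 and with 45 and 36.

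With 1 pool left out, calls ranged from 747 to 2100 in ReAC minus AC30 (462 to 1180 higher and 283 to 922 lower), from 98 to 866 in ReAC minus DeAC, from 1445 to 2788 in DeAC minus AC30, from 481 to 1446 in AC30 minus control and from 464 to 1374 in DeAC minus control. Genes called in both exposures ranged from 20 to 196 higher and from 32 to 212 lower, and those in the other pair from 144 to 405 and from 113 to 352. The cause of these shifts was not tested, except that a stricter threshold passes fewer genes by construction.

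Signs turned only for genes that had not passed, of which Sln and Nppa then passed in the opposite direction with the covariate. Both are part of that covariate, whose members must balance in rises and falls by construction. Hsp90aa1 became 0.0414 with values as deposited, 0.115 with median scaling and 0.026 with the covariate. With median scaling Atp2a2 became 0.0418. With the covariate Sln became 0.410, Nppa 0.339, Hamp 0.191, Pln -0.00302, Stat3 -0.0509 and Myl2 -0.151. With 1 pool left out, the change ranged from -0.0152 to 0.012 for Hsp90aa1, from -0.0469 to 0.0542 for Hspa8, from -0.067 to 0.129 for Mapk14, from -0.0133 to 0.061 for Stat3, from -0.0608 to 0.0944 for Myl2 and from -0.0578 to 0.0715 for Nr3c1.

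The labels do not say whether pools with the same number were processed together. The deviations of same-numbered pools correlated above 0.1 in 1 of 10 group pairs, with a range of -0.0772 to 0.210. Correlations over all genes cannot exclude a batch that touched part of the genes. With the pool number as a replicate block there were 1762 calls in ReAC minus AC30, 595 in ReAC minus DeAC and 1233 in AC30 minus control.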
